A study of Mus musculus with 2 samples.

Results

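The *Hox* genes of the 4 mouse clusters were followed on arrays of incisor tissue from newborn wild-type (WT) and *Sox21* KO mice. Members were all probes whose gene name in the array files is *Hoxa*, *Hoxb*, *Hoxc* or *Hoxd* with a paralogue number. They came to 43 probes for 39 genes on 61 spots, of 55681 probes for 20012 named protein-coding genes on 59305 spots other than controls. The naming rule itself uses no measured level. RNA of each genotype was labelled with Cy3 and hybridized to 1 Agilent one-colour SurePrint G3 Mouse GE array, giving 2 arrays in all. The sample labels give the tissue as incisor and the age as P0 for both genotypes, whereas the methods of the study give P1. The wild-type mice were C57BL/6J, the *Sox21* KO mice lack a gene for an HMG-box transcription factor made in ameloblasts, and nothing in the sources used here says whether RNA of several animals was pooled. With 1 array per genotype, no difference has a replicate check, the number of arrays limits the precision, and no test was run.

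*Hox* genes encode homeodomain transcription factors that give cells of the trunk, limbs and hindbrain their place along the body axis. Genes at one end of a cluster act in the head-ward part of their domain and genes at the other end act toward the tail, and genes with the same number in different clusters are paralogues. The teeth arise from oral epithelium and from neural crest of the jaws, chiefly that of the first pharyngeal arch, which is known for carrying no *Hox* expression and is patterned by other homeobox genes such as *Dlx* and *Msx*. *Hoxc13* is a known exception to the rule of axial position, since it is active in hair follicles and switches on hair keratin genes. RNA was taken from a whole piece of tissue, so fewer cells of a type and less RNA per cell cannot be told apart.

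Among the 43 probes, 1 of those for *Hoxb3* and the probes for *Hoxc11* and *Hoxc12* hold all or some codons of a conserved stretch in the coding sequence of the homeobox, the part of the gene that *Hox* family members share. The brightest *Hox* spot of both arrays came from the *Hoxb3* one, and the probes of *Hoxc11* and *Hoxc12* are shown as examples of the shared sequence. Capitals mark the codons of a conserved stretch of 6 residues in the recognition helix of the homeodomain, or its last 3 codons in the case of *Hoxc12*.

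Hoxc11: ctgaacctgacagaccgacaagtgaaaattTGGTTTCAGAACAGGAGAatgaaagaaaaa
Hoxc12: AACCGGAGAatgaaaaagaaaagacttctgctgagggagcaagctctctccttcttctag

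On mm9, the build of the array files, the *Hoxc11* probe lies at chr15:102787022-102787081 and the *Hoxc12* probe at chr15:102768889-102768948, both on the plus strand. When aligned at the shared codons, they were identical at 18 of 21 bases.

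Most *Hox* genes were not well above background in the incisor of either genotype. The scanner software marks a spot as well above background when its signal clears the local background by a set margin, and with spots it also marks as outliers left out, 2 of the 39 *Hox* genes carried the mark on the WT array and 3 on the KO array. Over all protein-coding genes with a usable probe, the shares were 67.8% on the WT array and 68.7% on the KO array, with 66.6% on both, and over all probes they were 48.4% and 49.1%. The *Hox* genes with the mark were *Hoxa7* and *Hoxd8* on both arrays and *Hoxa9* on the KO array alone. With outlier spots kept, *Hoxb3* joined on both arrays, which brought the counts to 3 of 39 on the WT array and 4 on the KO array and left 35 genes without the mark on either. Over all protein-coding genes the shares were then 67.9% and 68.8%. Among 142 other protein-coding genes that the array files describe as homeobox genes, 52.1% had the mark on the WT array and 50.7% on the KO array, with outlier spots kept.

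**Figure D1:**
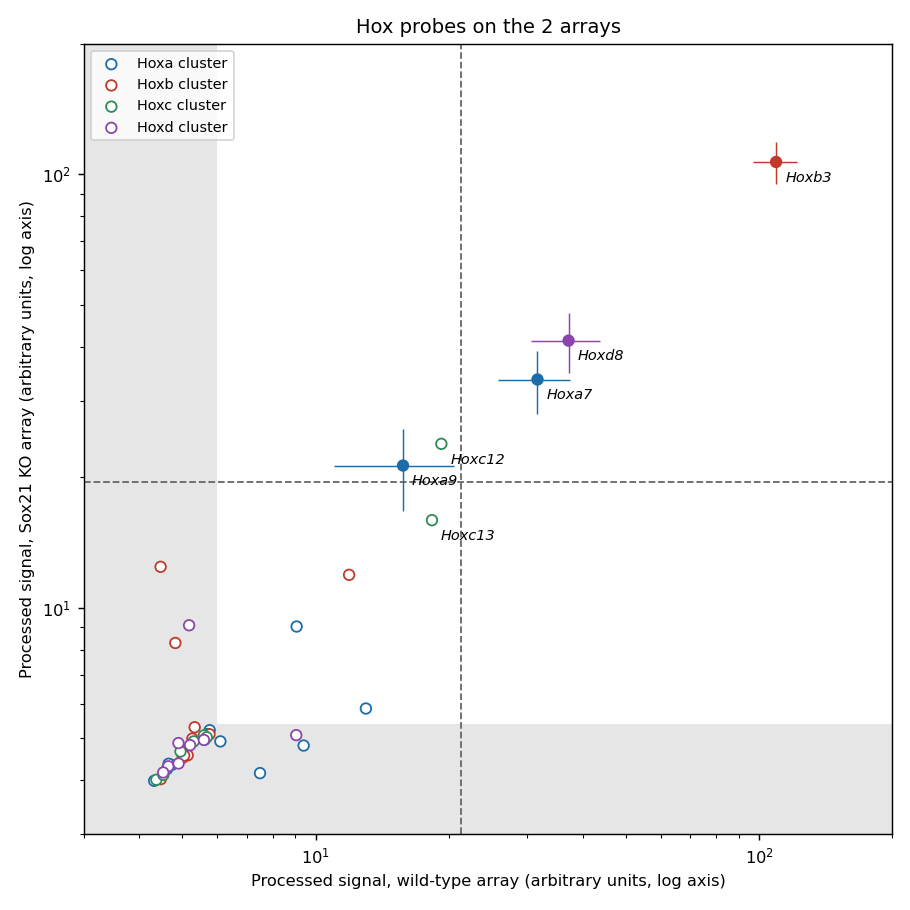
Processed signal of the 43 *Hox* probes on the WT array (x axis) and the *Sox21* KO array (y axis), in arbitrary units on log axes, coloured by cluster. Filled points were well above background on at least 1 array and carry the scanner's own error as bars, open points were not, dashed lines stand at the lowest signal that carried this mark on each array, and grey bands end at the 95th percentile of the negative controls. Only *Hoxb3*, *Hoxd8* and *Hoxa7* lie beyond both dashed lines and are filled, and 27 open points have no mark on either array.

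The marked genes came from 3 of the 4 clusters. Over all protein-coding genes the share with the mark was 67.9% on the WT array and 68.8% on the KO array, with outlier spots kept. With outlier spots kept, the *Hoxa* cluster had 1 of 11 genes well above background on the WT array and 2 on the KO array, the *Hoxb* cluster 1 of 10 on each, the *Hoxd* cluster 1 of 9 on each and the *Hoxc* cluster 0 of 9 on each. By position along the body axis, 1 of 8 genes with paralogue numbers 1 to 3 had the mark on each array, and 0 of 8 without the *Hoxb3* outlier spot. Of the 15 genes numbered 4 to 8, which act in the trunk, 2 had it on each array. Of the 16 genes numbered 9 to 13, which act in the lower trunk, limbs and genital region, 0 had it on the WT array and 1 on the KO array.

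The genes that were measured on both arrays had nearly the same signal in wild-type and *Sox21* KO incisor. *Hoxa7*, a gene of trunk patterning that also acts in blood-forming cells, is read by a probe at chr6:52165626-52165685 on the minus strand. Its processed signal was 31.6 on the WT array (scanner error 5.90) and 33.6 on the KO array (scanner error 5.60). After each signal was divided by the 75th percentile of its array, which was 268 and 276, the log2 ratio of KO over wild-type was 0.05 with a scanner error of 0.36. *Hoxd8*, which acts in the trunk, is read at chr2:74545171-74545230 on the plus strand. Its signal was 37.2 on the WT array (scanner error 6.55) and 41.3 on the KO array (scanner error 6.52), a log2 ratio of 0.11 with a scanner error of 0.34. Both ratios were smaller than their own error. Both were also smaller than the spread between spots of one probe at similar brightness, since 55 repeated probes with a mean signal between 20 and 150 had a median SD of 0.22 in the log2 ratio. *Hoxa7* and *Hoxd8* were close to the lower limit of detection, as the lowest signal marked well above background on any spot was 21.3 on the WT array and 19.5 on the KO array. Over the 13035 protein-coding genes measured on both arrays, 0.759% were at least 2-fold higher and 0.683% at least 2-fold lower in the KO, and 0 of the 2 measured *Hox* genes were in either set.

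*Hoxa9*, a gene of the posterior trunk that is also known from blood-forming cells, had a pair of probes. The probe at chr6:52174165-52174224 gave 15.7 on the WT array without the mark and 21.3 on the KO array with it. No fold is given, since the KO signal, once scaled, did not exceed the lowest level that can be marked on the WT array. The other *Hoxa9* probe gave 9.06 and 9.04 and lacked the mark on both arrays.

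The brightest *Hox* spot belonged to *Hoxb3*, a gene of the hindbrain and the posterior pharyngeal arches, and its probes disagreed. The homeobox probe had a signal of 109 on the WT array (scanner error 12.4) and 106.8 on the KO array (scanner error 11.9), with a log2 ratio of -0.07 and a scanner error of 0.23. The other *Hoxb3* probe, further along the transcript at chr11:96209002-96209061, gave 4.47 and 4.02 with no mark on either array. The accessions that the array file lists for the homeobox probe also include a transcript of the paralogue *Hoxd3*, so its signal cannot be given to *Hoxb3* alone. The probe that reads *Hoxd3* by itself gave 5.60 and 4.95, again with no mark. On both arrays the scanner software marked the local background of the homeobox spot as an outlier, and for that reason the spot was left out of the main counts. A search of both strands for the conserved stretch of 6 residues, with any synonymous codons allowed, found it in 7 of 55681 probes (0.0126%), all in the sense direction. Of those 7 probes, 4 were well above background on both arrays, beside 48.4% and 49.2% of all probes on the respective arrays with outlier spots kept. They read *Hoxb3*, the homeobox genes *Msx3* (51.7 and 74.6) and *Nkx1-1* (116 and 112), and the transcript ENSMUST00000030994 (239 and 231). The other 3 read *Hoxc11* (5.31 and 4.91), *Nkx1-2* (4.48 and 8.24) and *Tlx3* (5.80 and 5.35).

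*Hoxc13*, the hair gene, was not well above background in either genotype. Its probe at chr15:102759058-102759117 gave 18.3 on the WT array (scanner error 5.83) and 15.9 on the KO array (scanner error 5.29). The weaker mark of the scanner software, which asks only whether the pixels of a spot exceed those of its background, was present on both arrays. Of 308 negative control spots per array, 4 reached the *Hoxc13* signal on the WT array and 2 on the KO array. *Hoxc12*, its neighbour in the cluster, gave 19.2 and 23.9 with the weaker mark on both arrays, and 4 and 0 negative controls reached those values. For comparison, 1 negative control reached *Hoxa7*, *Hoxd8* and *Hoxb3* each on the WT array and 0 on the KO array, and 5 reached *Hoxa9* on the WT array and 1 on the KO array.

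Hair genes that go with *Hoxc13* were measured about as often as other genes. Of 17 with a usable probe, 12 had the mark on both arrays, beside 66.6% of all protein-coding genes. The median of their log2 ratios was 0.08 beside 0.01 over all measured protein-coding genes, and 8 had a ratio above 0 and 4 below. Those at least 2-fold higher in the KO were *Krt32*, a keratin of the hair cuticle, with 30.4 and 165 (log2 ratio 2.40), and *Foxn1*, a regulator of hair keratin genes, with 29.4 and 66.4 (log2 ratio 1.13). Over all measured genes 0.759% were at least 2-fold higher. In the hair list 0 were at least 2-fold lower, beside 0.683% of all measured genes. The hair keratin genes *Krt33a*, *Krt33b*, *Krt34*, *Krt35* and *Krt84* were not well above background on either array.

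The remaining *Hox* probes lay at or close to the lower end of the scale. There were 39 probes of 37 genes without the mark for well above background on either array, with signals from 4.32 to 19.2 (median 5.27) on the WT array and from 3.98 to 23.9 (median 4.91) on the KO array. Negative control spots had medians of 5.13 and 4.69 and 95th percentiles of 5.99 and 5.39. Of the 39 probes, 27 for 26 genes had neither mark. With outlier spots kept, they ran from 4.32 to 6.10 on the WT array and from 3.98 to 5.29 on the KO array, and the value of 6.10 belonged to *Hoxa11*, which gave 5.40 with outlier spots left out. Their scaled log2 ratios, which hold no order at the floor, ran from -0.30 to -0.10. The scanner software had replaced the signal by an estimate from the noise, as it does where a spot does not exceed its background, on 77.0% of the 61 *Hox* spots of the WT array and 75.4% of those of the KO array. Among negative controls these shares were 95.8% and 97.4%, and over all spots other than controls 32.6% and 32.2%.

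A middle group of 12 probes had only the weaker mark on at least 1 array, among them those for *Hoxc12* and *Hoxc13*. *Hoxa4* had a signal of 9.39 on the WT array and 4.80 on the KO array. *Hoxa6* had 12.98 and 5.85. *Hoxb5* went the other way, with 4.47 and 12.4. These genes belong to the middle of the clusters and act in the neck and upper trunk. *Hoxb4* gave 4.82 and 8.29, *Hoxd11* 5.18 and 9.10, and *Hoxd4* 9.04 and 5.08, while *Hoxb6* had 11.9 on both arrays. None of these was well above background on either array, so none was given a ratio. With outlier spots kept, the weaker mark was present for 12 of 39 *Hox* genes on each array and for 9 on both. Over all probes it was present for 66.5% on the WT array and 66.9% on the KO array. These are shares of probes, and the share over all genes was not taken for this mark.

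Repeated spots show how far a *Hox* probe at the floor can stray within an array. *Hoxa11*, a gene of limb and kidney patterning, and *Hoxb1*, a gene of the hindbrain, each had 10 spots. The *Hoxa11* spots ran from 4.86 to 12.0 on the WT array and from 4.52 to 5.43 on the KO array, and the spot at 12.0 was marked as an outlier and left out of the main counts. The *Hoxb1* spots ran from 4.85 to 5.89 and from 4.34 to 10.01. No spot of either gene was well above background, and a single high spot lifted the top of each wide range.

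The genes next to the clusters had the mark about as often as other genes. Of the 64 nearest protein-coding genes with a probe, 8 on each side of each cluster, 48 were well above background on the WT array, 49 on the KO array and 47 on both, beside 67.9% and 68.8% of all protein-coding genes on the respective arrays. Within the flanks the counts on the WT array were 10 of 16 for *Hoxa*, 11 of 16 for *Hoxb*, 14 of 16 for *Hoxc* and 13 of 16 for *Hoxd*. Neighbours with signal included *Skap2* beside the *Hoxa* cluster (497 and 627), *Snx11* near *Hoxb1* (2271 and 1949), *Smug1* beside *Hoxc4* (144 and 136) and *Mtx2* beside *Hoxd1* (1302 and 1150). *Evx1* and *Evx2*, homeobox genes at the posterior ends of the *Hoxa* and *Hoxd* clusters, were at the floor with 5.45 and 5.23 and with 5.39 and 5.89. The log2 ratios of flanking genes measured on both arrays ran from -0.36 to 0.55 with a median of 0.01, and 0 of them reached 2-fold.

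**Figure D2:**
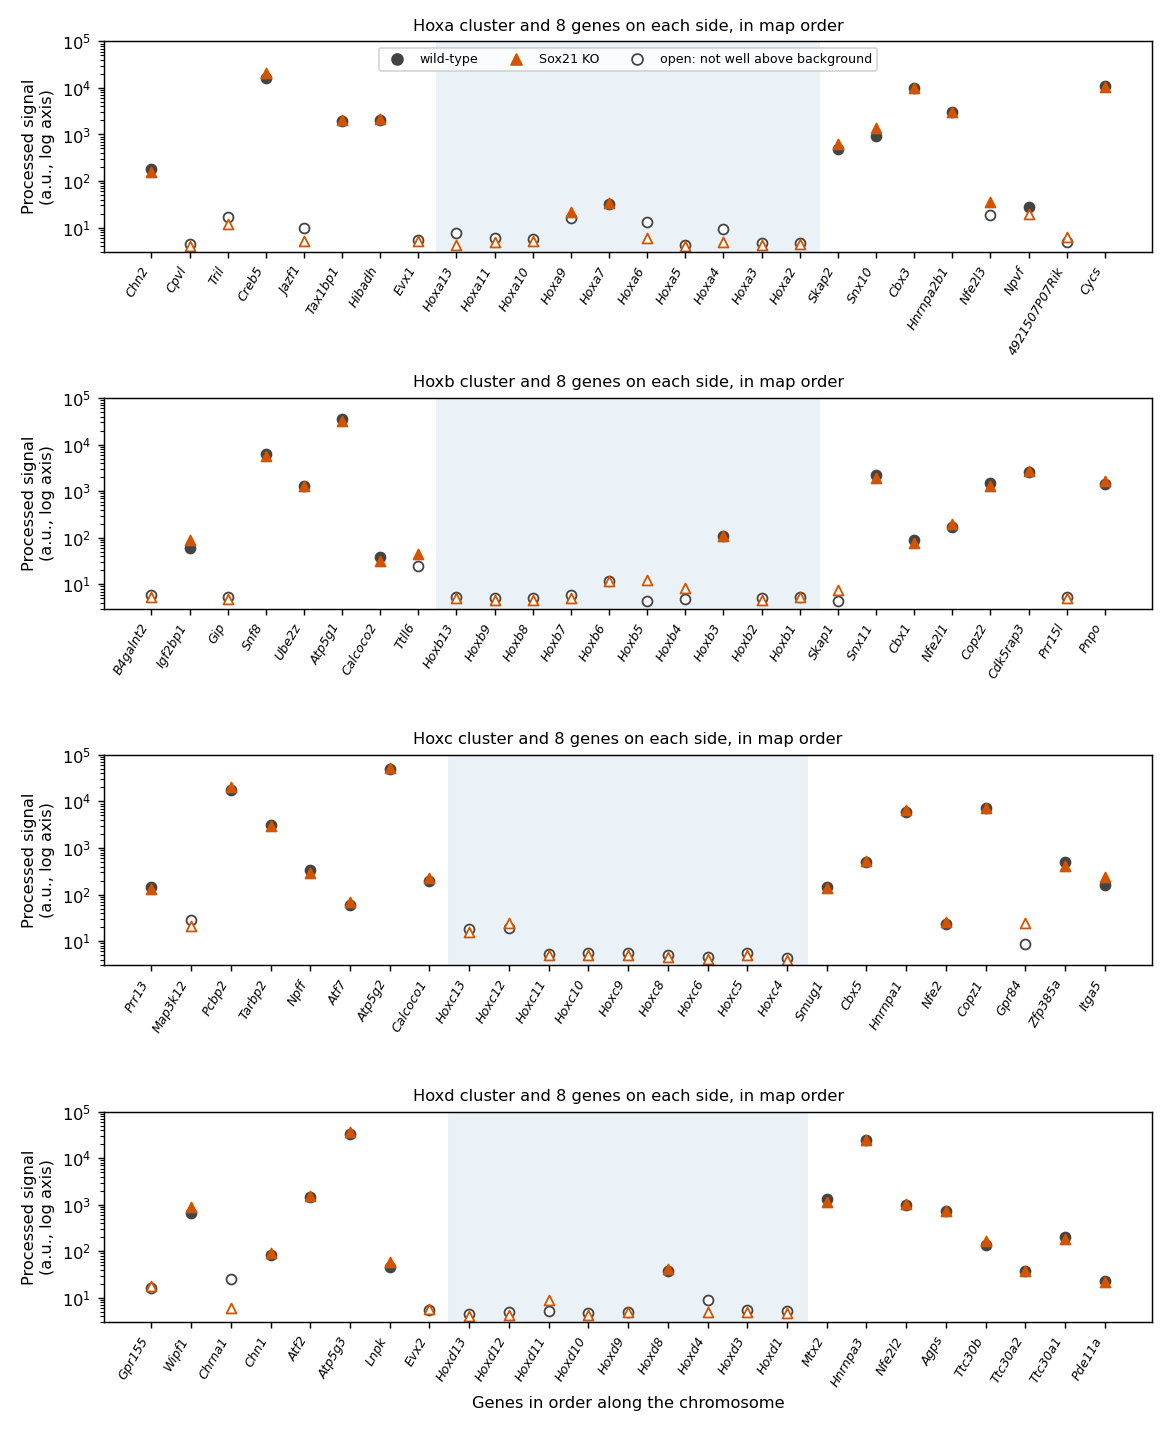
Processed signal (y axis, arbitrary units, log scale) of genes of each *Hox* cluster (shaded, 38 of the 39 genes shown) and of the 8 nearest protein-coding genes with a probe on each side, in map order along the chromosome (x axis), on the WT array (circles) and the *Sox21* KO array (triangles), using the brightest probe of a gene with outlier spots kept. Open symbols were not well above background; inside the shading only *Hoxa7*, *Hoxa9* on the KO array, *Hoxb3* and *Hoxd8* are filled, against 48 of 64 flanking genes on the WT array and 49 on the KO array.

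The homeobox genes that pattern the jaw and teeth were mostly measured in both genotypes. Of 20 such genes, 18 were measured on both arrays, beside 66.6% of all protein-coding genes. The median log2 ratio was 0.09 beside 0.01 over all measured genes, with 12 above 0 and 6 below. *Dlx2*, a patterning gene of the arch, had 4795 and 4386 (log2 ratio -0.17), and *Msx1*, needed for tooth development to proceed past the bud, had 1227 and 1400 (log2 ratio 0.15). The lowest ratio was -0.53 for *Dlx1* (435 and 310), and 0 genes reached 2-fold. *Barx1*, a gene of molar mesenchyme, gave 13.3 and 23.6, and *Otx2*, a gene of the forebrain and of anterior crest, gave 6.04 and 6.07. Neither was well above background on either array.

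**Figure D3:**
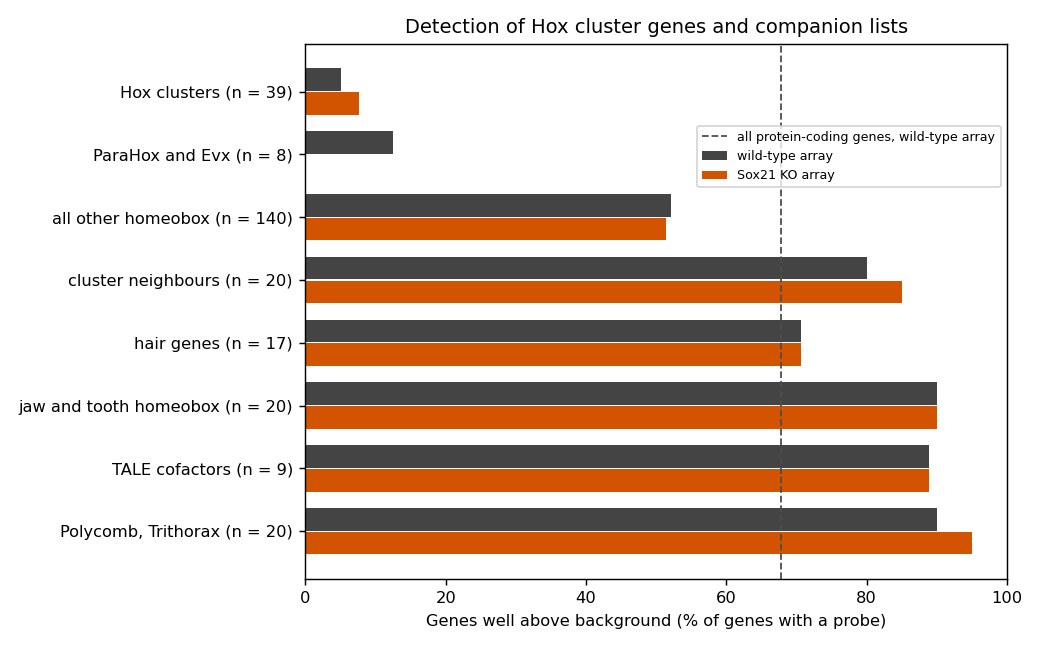
Share of genes well above background (x axis, percent of the genes with a usable probe, from 0) for the *Hox* clusters and 7 companion lists on the WT array (dark bars) and the *Sox21* KO array (orange bars), with outlier spots left out and the number of genes beside each name. The dashed line is the share of all protein-coding genes on the WT array, 67.8%; the *Hox* bars stand for 2 and 3 of 39 genes and the jaw and tooth homeobox bars for 18 of 20.

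The ParaHox and *Evx* genes, the closest relatives of the *Hox* genes, were also near the floor. Of 8 genes, 1 was well above background on the WT array and 0 on the KO array, beside 67.8% and 68.7% of all protein-coding genes. That gene was *Cdx4*, which acts upstream of *Hox* genes in the tail end of the embryo, with 166 on the WT array and 5.30 on the KO array. Its scaled signal was at least 8.76-fold lower in the KO, taking the lowest signal marked well above background on the KO array as the bound. The value rests on a single probe. The other members were *Cdx1*, *Cdx2*, *Gsx1*, *Gsx2*, *Pdx1*, *Evx1* and *Evx2*.

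The partners of Hox proteins were mostly measured, and *Meis1* and *Meis2* had the largest ratios among them. Proteins of the Meis, Pbx and Pknox families carry a TALE homeodomain and bind DNA together with Hox proteins, and *Meis2* is also known for its role in cranial neural crest. Of 9 genes, 8 had a log2 ratio, beside 66.6% of all protein-coding genes. The median of these ratios was 0.31 beside 0.01 over all measured genes. *Meis1* had a signal of 272 on the WT array (scanner error 27.6) and 665 on the KO array (scanner error 66.7), a log2 ratio of 1.25 with a scanner error of 0.21. *Meis2* had 145 (scanner error 15.4) and 431 (scanner error 43.4), a log2 ratio of 1.53 with a scanner error of 0.21. These were the only members at least 2-fold higher, beside 0.759% of all measured genes, and 0 were at least 2-fold lower, beside 0.683%. Each of them was read by 1 probe.

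The other partners gave smaller ratios, and the probes of *Meis3* did not match. Its brightest probe gave 0.57 and the other probes 0.04 and 0.45. *Pbx2* had a ratio of 0.04, *Pbx3* of 0.33, *Pknox1* of 0.14 and *Pknox2* of 0.29. *Pbx4* lacked the mark on both, with 4.88 and 9.18.

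**Figure D4:**
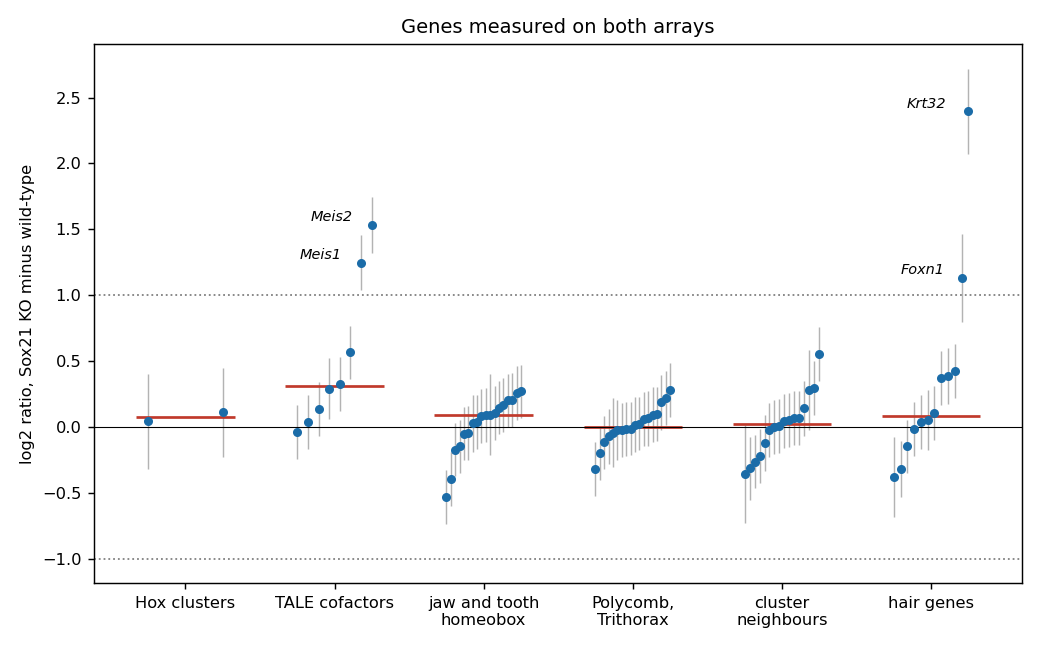
Log2 ratio of *Sox21* KO over wild-type (y axis) for genes measured on both arrays, in the 6 lists named on the x axis, with outlier spots left out. Points are genes in rank order, grey bars the error computed from the scanner's error on each array, red lines the list medians and dotted lines a 2-fold difference; of the genes plotted, only *Meis1*, *Meis2*, *Foxn1* and *Krt32* lie beyond 2-fold, and the 2 *Hox* points are *Hoxa7* and *Hoxd8*.

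Polycomb proteins keep *Hox* genes silent where they are not used, and Trithorax proteins keep them active elsewhere. Of 20 genes of the pair of groups, 18 had a log2 ratio, beside 66.6% of all protein-coding genes. The median of these ratios was 0.00 beside 0.01 over all measured genes, with 9 on each side of 0. *Ezh2*, the catalytic subunit of a Polycomb complex, had 465 and 557 (log2 ratio 0.22), its partner *Suz12* had 769 and 780 (log2 ratio -0.02), and *Bmi1* had 269 and 290 (log2 ratio 0.06). The highest ratio was 0.28 for *Ezh1* (309 and 385). *Cbx7* lacked the mark on both arrays, and *Kmt2a*, the Trithorax methyltransferase best known for holding *Hox* genes active, had the mark on the KO array alone with 22.2 and 25.6.

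Named non-coding transcripts of the clusters gave little signal. *Hoxa11os*, which is read from the opposite strand of *Hoxa11*, gave 20.2 and 13.3, and *Hoxd3os1* gave 6.32 and 4.81. Neither was well above background on either array. *HOTAIR*, an RNA of the *Hoxc* cluster between *Hoxc11* and *Hoxc12*, had 5 probes at chr15:102774511-102775064 on the minus strand. One of them gave 82.0 and 50.7 (log2 ratio -0.74) and was well above background on both arrays, while the other 4 were not well above background on either, so the probes of this RNA disagreed.

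The labels were checked on *Sox21* and on marker genes. The *Sox21* probes gave 1362 and 659 (log2 ratio -1.09) and 286 and 103 (log2 ratio -1.51), well above background on the KO array too, and whether they lie in the deleted segment is not given in the sources used here. For the tissue, 7 of 7 ameloblast markers were well above background on both arrays, among them *Amelx* and *Ambn* for the enamel matrix, as were 4 of 4 odontoblast and bone markers. Cells in which *Hox* genes are normally active left uneven traces. Of 6 markers of trunk and limb mesoderm, *Tbx15* and *Pitx1* were measured, the latter also a jaw gene, while *Tbx4*, *Tbx5*, *Tbx18* and *En1* were not well above background on either array. Of 7 blood markers with a usable probe, *Kit*, *Tal1* and *Alas2* were measured on both arrays, *Ptprc* had the mark on the KO array alone, and *Gata1* and *Klf1* were among those with it on neither. Endothelial markers were measured 5 of 5 and Schwann cell markers 3 of 4. The part of these cells in the *Hoxa7*, *Hoxa9* and *Hoxd8* signals was not tested.

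Some markers differed between the arrays by as much as the Hox partners did. The signals of the 4 cornified skin markers measured on both arrays, each in multiples of its array's 75th percentile, summed to 5.82 on the WT array and 11.1 on the KO array, with log2 ratios of 1.45 for *Krt1*, 1.15 for *Lor*, 0.34 for *Krt10* and -0.25 for *Casp14*. The other *Krt10* probe gave 1.84, so the probes of this gene disagreed, and *Flg*, marked on the KO array alone, was at least 5.18-fold higher there. Those of the 5 skeletal muscle markers summed to 57.9 and 40.3, with log2 ratios from -0.71 for *Ckm* to 0.64 for *Myh3*. Their median was -0.59, with 4 ratios below 0 and 1 above. Those of the 7 ameloblast markers summed to 3162 and 2866, most of it from *Amelx* and *Ambn*, while the median log2 ratio of the list was -0.62 and the ratios ran from -1.89 for *Amtn* and -1.05 for *Klk4* to 0.63 for *Odam*. Some markers of other cells differed too. Those of bone and dentin gave 0.93 for *Dmp1* and 0.55 for *Ibsp* beside 0.01 for *Sp7* and -0.01 for *Dspp*, whose other probe gave 0.28. Endothelial markers gave 0.64 for *Tek* and 0.62 for *Pecam1* beside 0.09 for *Tie1*, 0.07 for *Cdh5* and -0.02 for *Kdr*. Melanocyte markers gave 0.61 for *Dct* and 0.44 for *Tyr* beside -0.09 for *Pmel*. Of the neuron markers, *Snap25* had -0.44 and *Stmn2* 0.12, and *Elavl3* had the mark on the WT array alone and was at least 1.49-fold lower on the KO array. The list medians were 0.28 for bone and dentin, 0.09 for endothelium and 0.44 for melanocytes. Summed signals on the WT and KO arrays were 189 and 225 for bone and dentin, 51.5 and 51.7 for endothelium, and 2.49 and 3.71 for melanocytes. The part of all these cells in the *Meis1* and *Meis2* ratios was not tested.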

How the data were processed

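The deposited scanner files give a processed signal intensity per spot, made by the authors with Agilent Feature Extraction 10.7.3.1, which takes off background. The deposited value table gives a ratio on a linear scale, the same signals divided by 267.771 on the WT array and 275.586 on the KO array. The methods name a percentile shift without the percentile. Both columns are unlogged and not centred by gene, with medians of 0.0756 and 0.0707. No columns of the authors' own comparisons were used.

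Each signal was divided by the 75th percentile over all spots of its array. Log2 ratios are KO minus WT. Spots marked as feature or background outliers on either array were left out, as was done for 1693 probes. A gene counted as measured if both arrays marked a probe of it as well above background, and the brightest such probe was used. A gene on 1 array alone got a bound in place of a ratio, and this bound is not printed for *Hoxa9*, *Kmt2a* and *Ptprc*. Names came from RefSeq genes of GRCm38.p6, which matched 26300 probes by accession, 2044 by symbol and 355 by older symbol, and 26982 kept the file's name. Coordinates are mm9. Probe sequences came from the scanner files.

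Members, lists and the naming rule (every *Hox* gene, list members at least 2-fold apart, undetected markers and a few in list order) were chosen with earlier results of these data known. *Msx3*, *Nkx1-1*, *Nkx1-2*, *Tlx3* and the non-coding RNAs were named after their values were seen. Some withheld genes and a probe sequence are not reported here. No test was run. On each array 0 spots were saturated. The steps were tested on simulated data. Python 3.11.15, pandas 2.3.3, numpy 2.4.6, R 4.3.3 and limma 3.58.1 were used.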

Additional observations from a re-analysis of the deposited data

How the results depend on the processing

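No paired analysis was possible because each genotype has 1 array and the labels give no replicate numbers. Of 97 values recomputed under other scalings, background corrections, filters, probe rules and detection rules, 83 stayed within the error or 1.5 times the count. Without the filter on background, 1 *Hox* gene was at least 2-fold higher (*Hoxb5*) and 2 were lower (*Hoxa4* and *Hoxa6*), none of them well above background on either array, and in the other alternatives 0 were. The number of *Hox* genes called detected depended on the rule. With the weaker mark it was 11 on each array (12 probes on each), and above the 95th percentile of the negative controls it was 10 on each (11 probes on each), where 65.7% of all probes passed on the WT array and 66.2% on the KO array. Above the highest negative control it was 0 genes and 0 probes on the WT array, where that control reached 147, and 3 on the KO array, where it reached 22.3, beside 30.2% and 49.5% of all probes. The ratio of *Hoxa7* ran from -0.03 to 0.12 and that of *Hoxd8* from -0.05 to 0.18, so the sign of neither was settled. *Meis1* ran from 1.05 to 1.32 and *Meis2* from 1.14 to 1.61, and the median of the Hox partners fell to 0.22 with normexp background correction. Across the settings, list medians ran from 0.06 to 0.16 for jaw and tooth homeobox genes and from 0.05 to 0.16 for hair genes. They ran from 0.01 to 0.10 for a list of 20 genes beside the clusters and from -0.02 to 0.08 for Polycomb and Trithorax genes. The highest value of each came with scaling to the median spot. There the median over all measured genes was 0.09, against 0.01 in the main setting. Signal over background limits what can be said of the *Hox* genes: a gene without the mark for well above background is not shown to be silent.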

Other observations

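Some spots between the *Hox* genes were well above background. Of 40 probes inside the spans of the clusters that read other transcripts, 11 had this mark on each array, where 48.4% of all probes had it on the WT array and 49.2% on the KO array, with 0 of 6 in the *Hoxa* span, 8 of 22 in the *Hoxb* span, 2 of 6 in the *Hoxc* span and 1 of 6 in the *Hoxd* span. In the *Hoxb* span, the unnamed probe A_55_P1998848 at chr11:96110121-96110180 gave 30082 on the WT array and 33714 on the KO array (log2 ratio 0.12). The non-coding region at chr11:96111499-96126224, between *Hoxb13* and *Hoxb9*, had 4 probes on each strand named after it. On the plus strand 3 of these 4 were well above background on each array, with signals from 33.9 to 146 over both arrays. On the minus strand 2 of 4 were. One minus-strand probe gave 1455 and 2550 (log2 ratio 0.77), and another gave 286 and 307 (log2 ratio 0.06). A shorter region inside it, chr11:96112907-96125798, had 3 plus-strand probes, of which 1 was well above background on both arrays (755 and 696). A further plus-strand probe there, for ENSMUST00000107676, lacked the mark on both arrays. A probe of the *Hoxd* span for ENSMUST00000100000 gave 339 and 458 (log2 ratio 0.39), and *Gm4200* of the *Hoxc* span gave 55.9 and 65.8. None of these values has a replicate check.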
